A study of Mus musculus with 12 samples.

Results

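The genes of the glutathione and thioredoxin systems were followed across 12 one-colour arrays of sorted mouse bone marrow cells. The set holds every gene with a symbol of the families Gsta, Gstk, Gstm, Gsto, Gstp, Gstt, Mgst, Gpx, Prdx, Txn, Sod and Glrx, together with Gclc, Gclm, Gsr, Gss and Cat. It comprises 69 of the 20280 genes that could be named on the array. Of these, 60 passed the filter on dim probes and were tested among 13707 genes, and 9 were not (Gsta1, Gsta2, Gstt4, Gpx5, Gpx8, Prdx6b, Sod3, Txndc2 and Txndc8). A gene passed where 2 or more of the 12 arrays read its probe well above background.

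Glutathione is the main small thiol of the cell. Glutathione peroxidases and glutathione S-transferases spend it to reduce peroxides and to conjugate reactive compounds, and glutathione reductase (Gsr) regenerates it with NADPH. Thioredoxins, their reductases and the peroxiredoxins form a parallel thiol system, and superoxide dismutases and catalase handle superoxide and hydrogen peroxide. In bone marrow, stem cells are known for low levels of reactive oxygen species, whereas the granulocyte lineage is equipped to produce oxidants.

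The cells were granulocyte-macrophage progenitors (GMPs) and LSK cells, a marrow fraction without lineage markers but with Sca-1 and c-Kit, in which stem cells and multipotent progenitors are found. All came from the marrow of recipient mice reconstituted with C57BL/6 fetal liver cells. In each cell type there was 1 array of Tet2KD/KDEzh2-/- cells (double mutant) from disease labelled RAEB, for refractory anaemia with excess blasts, 1 of double mutant cells from disease labelled MDS/MPN, a myelodysplastic and myeloproliferative disease, 1 of double mutant cells without disease, 1 of Ezh2-/- cells, 1 of Tet2KD/KD cells and 1 of wild-type cells. Tet2 oxidises methylated cytosine, and Ezh2 is the methyltransferase of Polycomb repressive complex 2. The labels do not state the age of the mice, how many gave each RNA, what deletes Ezh2 or how many host cells remained. No group was repeated, so replication came from the matched layout, and a standard error (SE) here measures how far a difference varied between conditions or cell types, not between mice.

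Each value is a log2 signal after subtraction of the log2 75th percentile of its array, and levels of different probes are not set against each other. Tet2 was -1.01 in double mutant and -0.64 in Tet2KD/KD GMPs, against 1.51 in Ezh2-/- and 1.57 in wild-type GMPs. In LSK cells the double mutant had -0.79 and the Tet2KD/KD array -1.61, against 0.12 in Ezh2-/- and 0.44 in wild-type cells. The Ezh2 probe did not separate the genotypes (3.12 to 3.40 on the GMP and 2.50 to 2.82 on the LSK arrays without disease), and whether it lies in the deleted part is not given in the sources used here, so it checks nothing. The summed linear level of the 12 GMP markers was 4442 to 6789 on the GMP arrays, against 1508 on the LSK array with MDS/MPN, 1107 on that with RAEB and 455 to 672 on the other LSK arrays. The diseased GMP arrays were on 1 slide, the diseased LSK arrays on another and the 8 remaining arrays on slide 1, so disease and slide cannot be told apart. Eif2s3y, on the Y chromosome, was 0.82 in RAEB and 1.51 in MDS/MPN GMPs, against -6.20 in double mutant GMPs without disease. It was -6.72 and -6.76 on the diseased LSK arrays. The GMP and LSK arrays of each disease thus differed in the sex of their cells and are pairs by label only. In these pairs cell type and sex cannot be told apart. The diseased GMP arrays also differed in sex from the double mutant GMP array without disease, so between these arrays disease, slide and sex cannot be told apart.

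Between GMP and LSK cells redox genes differed in both directions. The microsomal transferases Mgst1 and Mgst2, the neighbouring Gstm1, Gstm3 and Gstm4, glutathione reductase, Gpx3 and Prdx5 were higher in GMPs, by a log2 difference of 1.77 to 3.02 for all but Gpx3, whose 6.01 was taken against LSK signals mostly at background. Gstt1, Gsta4, Gpx2, Gpx7 and the thioredoxin inhibitor Txnip were lower, with differences of -1.59 to -3.52. With condition as a block, limma called 34 of the 60 members at an adjusted p under 0.05, which is 56.7% of them against 44.4% of all genes tested. Of these, 26 were higher in GMPs (43.3%, against 25.7% of all genes) and 8 were lower (13.3%, against 18.7%). The median difference was 0.38 over the members and 0.16 over all genes. All 6 GMP arrays lay above all 6 LSK arrays for 22 members (36.7%, against 14.6% of all genes), and below them for 6 (10.0%, against 11%). At an unadjusted p under 0.05 there were 38 members (63.3%, against 52.7% of all genes). The counts by family given here stand beside the same 25.7% higher and 18.7% lower of all genes, and no family was tested against these shares. In such sorted populations, fewer cells of a type and less RNA per cell cannot be told apart.

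That split depended on the scaling. With quantile normalization, which moved the median of all genes to 0.01, 31 members passed, 17 higher and 14 lower, so that the share of higher calls was 54.8% in place of 76.5%. The calls over all 13707 genes moved the same way, from 6085 with 3516 higher to 5725 with 2625 higher. Of the 34 member calls 25 were kept. The 9 that were lost were modest increases (Glrx3, Gpx4, Sod1, Sod2, Txn1, Txn2, Txndc12, Txndc15 and Txndc17). The 6 gained were Gstm6, Prdx2, Prdx4, Prdx6, Txnrd1 and Txnrd2. On slide 1 alone, which holds the 8 arrays without disease, 38 members passed and Gstm2 and Txndc12 did not. The calls over all 13707 genes rose there too, from 6085 to 7174, so the rise in calls was not particular to the members.

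**Figure D1:**
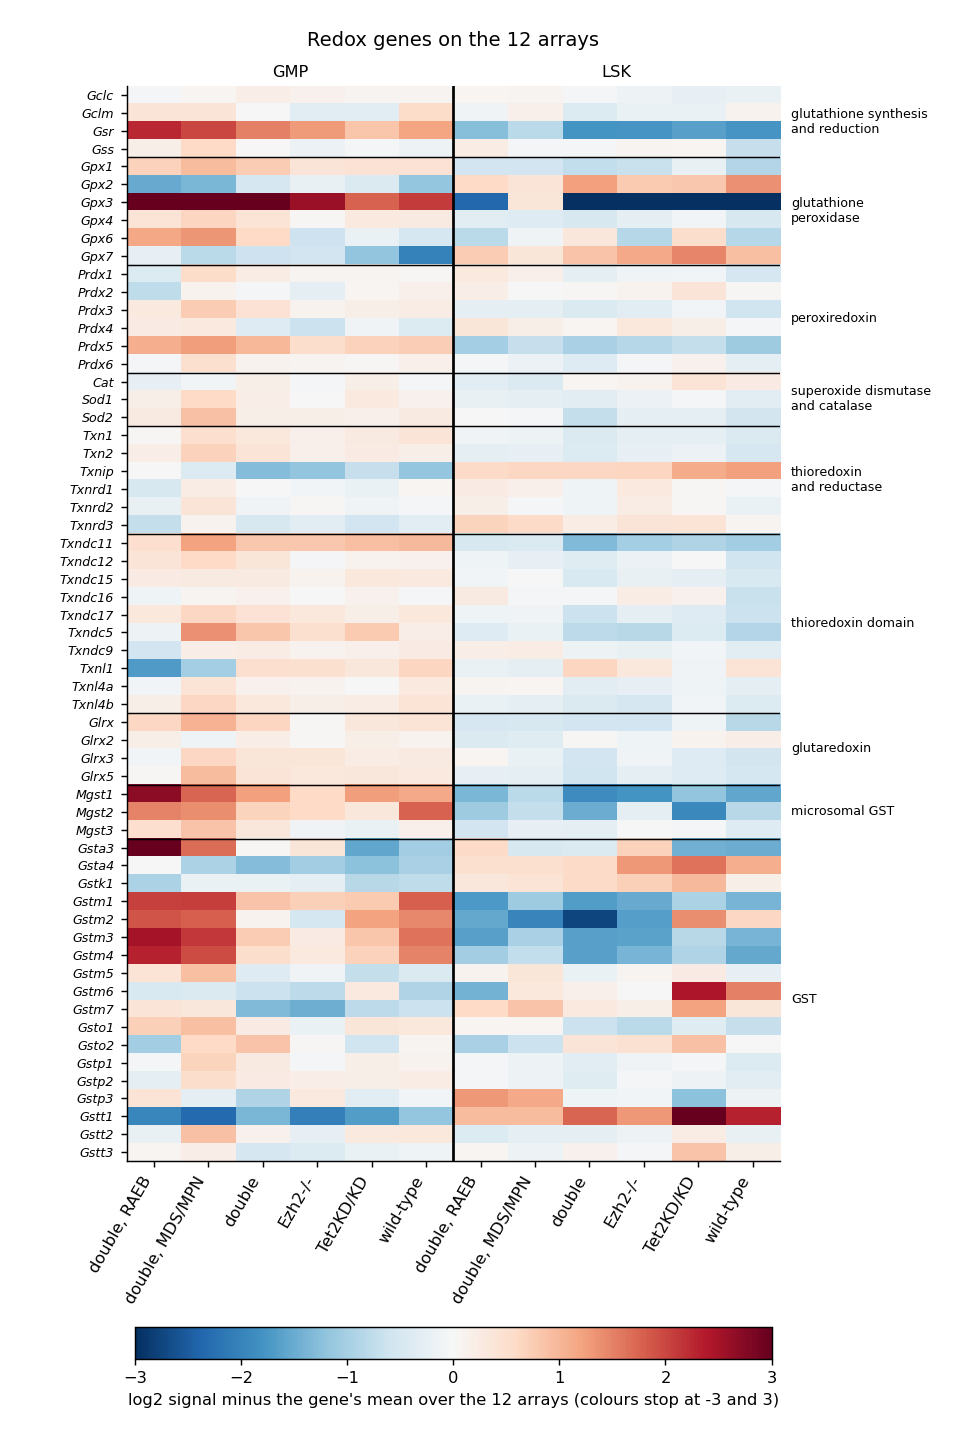
The 60 tested redox genes (rows, by family) on the 12 arrays (columns, GMP on the left and LSK on the right). Colours give the log2 signal minus the gene's mean over the arrays and stop at -3 and 3. Gsr, Gpx3, Mgst1 and Gstm1 to Gstm4 are red on most GMP arrays and blue on most LSK arrays, and Gstt1, Gpx2 and Txnip run the other way.

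Of the enzymes that make and recycle glutathione, 1 of 4 changed. Gsr had a lowest, median and highest value of 6.61, 7.18 and 8.04 on the GMP arrays, against 4.00, 4.08 and 4.99 on the LSK arrays. The groups did not overlap, with the RAEB array highest in GMPs and the MDS/MPN array highest in LSK cells. The log2 difference was 3.02 (SE 0.16, adjusted p 1.2e-05, higher in 6 of 6 pairs), and a second probe gave 3.00. The subunits of glutamate-cysteine ligase, which makes the first bond of glutathione, did not pass: Gclc ran from 2.69 to 2.91 in GMPs, against 2.48 to 2.81 in LSK cells, a difference of 0.17 (SE 0.12, adjusted p 0.268), and Gclm differed by 0.23 (SE 0.14, adjusted p 0.214). Glutathione synthetase (Gss) differed by 0.15 (SE 0.16, adjusted p 0.475). The Gclc difference was -0.04 with quantile normalization and 0.23 with slide as a random block, where it passed (adjusted p 0.0401).

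The glutathione peroxidases moved both ways, 3 higher and 2 lower of 6 tested. Gpx3, the secreted plasma form, had -0.62, 0.58 and 1.88 as its lowest, median and highest value on the GMP arrays, against -6.53, -6.30 and -2.03 on the LSK arrays. It was well above background on all 6 GMP arrays and on 1 of the 6 LSK arrays, that with MDS/MPN, which is also the LSK array with the highest GMP and neutrophil marker sums (1508 and 350); the part of such cells in its value was not tested. The difference was 6.01 (SE 0.45, adjusted p 5.25e-05), which rests on LSK signals at background, and the MDS/MPN pair gave 3.58. With normexp background correction, whose offset compresses dim signals, it was 2.84. Gpx1, the cytosolic enzyme, was higher by 1.22 (SE 0.15, adjusted p 0.000458), from 9.31 to 9.87 in GMPs, against 8.03 to 8.69 in LSK cells. Gpx4, which reduces lipid peroxides in membranes, was higher by 0.68 (SE 0.14, adjusted p 0.00518) but by 0.14 with quantile normalization (adjusted p 0.268).

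The opposite direction held for Gpx2, known as the gastrointestinal form. Its lowest, median and highest values were -1.12, -0.45 and 0.15 in GMPs, against 0.76, 1.19 and 1.76 in LSK cells. The groups did not overlap, and the difference was -1.73 (SE 0.21, adjusted p 0.00045). Gpx7, a peroxidase of the endoplasmic reticulum, was lower (difference -1.83, SE 0.28, adjusted p 0.00144) and measured well above background on 5 of 6 GMP arrays. The Gpx7 difference shrank to -0.61 with normexp correction.

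Of the peroxiredoxins, most of which reduce peroxides through thioredoxin, 2 of 6 tested were higher and 0 lower, beside the 25.7% and 18.7% of all genes. Prdx5, found in mitochondria and peroxisomes, had 5.73, 6.08 and 6.47 as lowest, median and highest value in GMPs, against 4.14, 4.30 and 4.51 in LSK cells. The groups were well apart, and the difference was 1.77 (SE 0.14, adjusted p 6.96e-05). Prdx3, the mitochondrial form, was higher by 0.67 (SE 0.14, adjusted p 0.00671). The abundant cytosolic Prdx1 differed by 0.18 (SE 0.18, adjusted p 0.444), and its second probe by -0.19. It passed only without the RAEB pair (0.36, adjusted p 0.0397) and was -0.29 with quantile normalization.

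Both intracellular superoxide dismutases were called higher by small amounts. Mitochondrial Sod2 ran from 5.66 to 6.37 in GMPs, against 4.78 to 5.50 in LSK cells, a difference of 0.63 (SE 0.14, adjusted p 0.00714). Cytosolic Sod1 differed by 0.46 (SE 0.13, adjusted p 0.0205). Under quantile normalization these were 0.17 and -0.03, and neither passed; the Sod1 call was also lost without the wild-type or the double mutant pair. Catalase (Cat) ran from 1.42 to 1.84 in GMPs, against 1.24 to 2.08 in LSK cells, and did not pass (-0.02, SE 0.13, adjusted p 0.905).

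Among the thioredoxins and their partners 2 rose and 2 fell of 6. Txnip, which binds and inhibits thioredoxin, had 1.35, 1.74 and 2.65 as lowest, median and highest value on the GMP arrays, against 3.24, 3.29 and 3.88 on the LSK arrays. The highest GMP values of this probe were those with RAEB and MDS/MPN. The difference was -1.59 (SE 0.24, adjusted p 0.00131), and it was -1.98 over the 8 arrays without disease and -0.81 over the 4 with disease. That contrast was not tested. A second Txnip probe gave a difference of -1.21. Its highest GMP value was 0.41 in Tet2KD/KD cells, with 0.35 in RAEB, -0.82 in MDS/MPN and -0.77 in wild-type cells. Cytosolic Txn1 was higher by 0.55 (SE 0.13, adjusted p 0.0109) and mitochondrial Txn2 by 0.62 (SE 0.12, adjusted p 0.00559), with 0.02 and 0.14 under quantile normalization. The thioredoxin reductases diverged in their calls: Txnrd3 was lower (-0.78, SE 0.15, adjusted p 0.0051), while Txnrd1 differed by -0.17 (SE 0.15, adjusted p 0.374), or by -0.54 with quantile normalization (adjusted p 0.00542). Txnrd2 did not pass (-0.02).

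Of the 10 tested genes named for a thioredoxin-like domain, 6 were higher and 0 lower. Txndc5, a protein disulfide isomerase of the endoplasmic reticulum, ran from 0.92 to 2.44 in GMPs, against 0.21 to 0.87 in LSK cells (difference 1.16, SE 0.19, adjusted p 0.00232). Txndc11 gave 1.73 (SE 0.17, adjusted p 0.000158) with its brightest probe and 0.06 with the other, so the probes disagree; their mean gave 0.89. Txndc17 differed by 0.73 and Txnl4b by 0.64. Glutaredoxins use glutathione to reduce disulfides, and 3 of 4 were higher. Glrx had 2.87, 3.35 and 3.88 in GMPs, against 2.01, 2.30 and 2.71 in LSK cells (difference 1.03, SE 0.17, adjusted p 0.00188). The mitochondrial iron-sulfur cluster protein Glrx5 differed by 0.77, or 0.31 with quantile normalization. Glrx3 differed by 0.59 (adjusted p 0.022), a call lost with quantile normalization, with normexp correction and without the wild-type, Tet2KD/KD, double mutant or MDS/MPN pair. Glrx2 did not pass, and its 3 probes gave 0.19, 0.65 and -0.37.

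**Figure D2:**
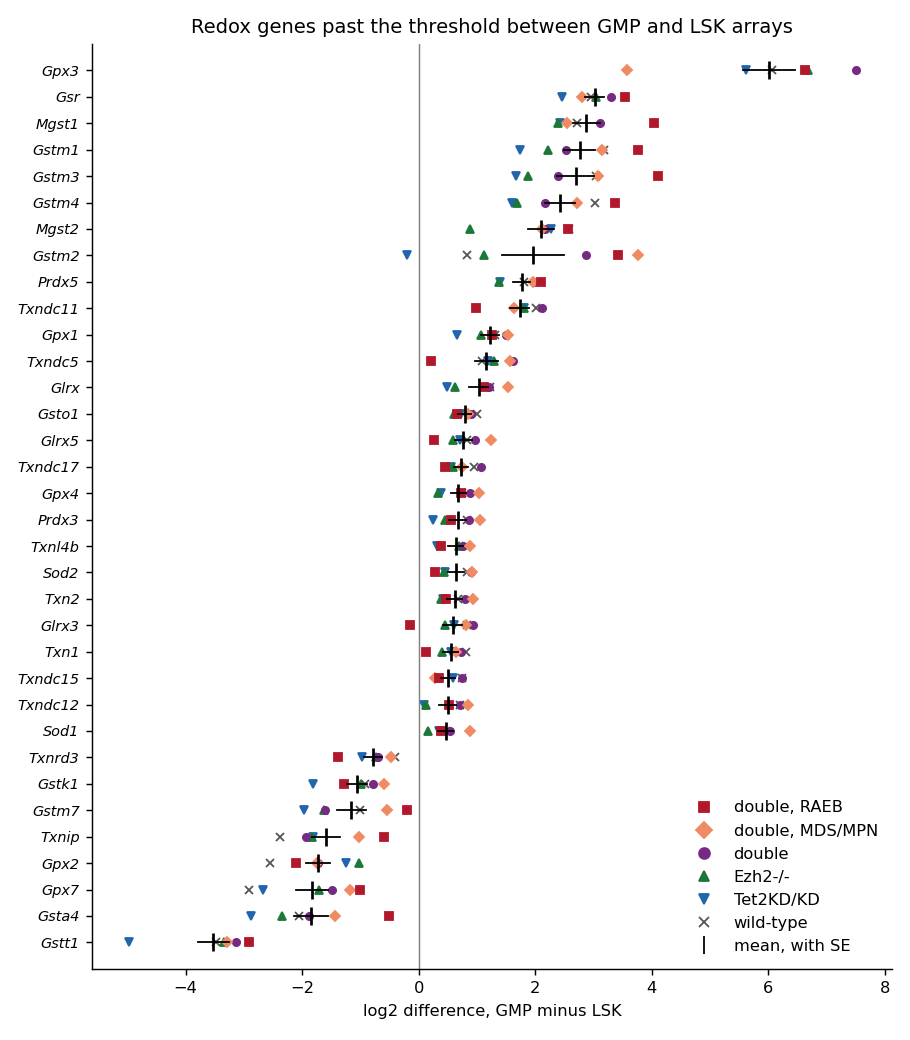
GMP minus LSK log2 differences (horizontal axis) of the 34 redox genes past the threshold, 1 row per gene. Each point is 1 condition's pair of arrays, and the black bar is their mean with its SE. Gpx3 is farthest right at 6.01 and Gstt1 farthest left at -3.52, and Gstm2 spreads widest across conditions around its mean of 1.97.

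The membrane-bound microsomal transferases gave large differences. Mgst1 had 3.70, 4.34 and 5.78 as lowest, median and highest value on the GMP arrays, against 1.21, 1.64 and 2.29 on the LSK arrays. The groups did not overlap, and the GMP array with RAEB was highest. The difference was 2.87 (SE 0.23, adjusted p 6.5e-05), with 2.83 from a second probe. Mgst2, which can conjugate leukotriene precursors, ran from 4.62 to 6.03 in GMPs, against 2.34 to 4.00 in LSK cells (difference 2.10, SE 0.23, adjusted p 0.000289). Mgst3 did not pass (0.52, adjusted p 0.0787).

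The promoter of Mgst1, among the largest increases, is shown beside that of Txnrd1, which did not pass, because both hold the letters of the antioxidant response element, the site of the stress regulator NRF2. The windows run from 250 bases before to 50 bases after a start in the RefSeq annotation of GRCm38.p6: chr6:138140277-138140576 on the plus strand for Mgst1, whose other window holds neither set of letters, and chr10:82858956-82859255 on the plus strand for Txnrd1, 1 of 3 windows of that gene. Capitals mark TGACNNNGC, and in Mgst1 also the C/EBP letters TTGCNNAA, each searched on both strands.
Mgst1: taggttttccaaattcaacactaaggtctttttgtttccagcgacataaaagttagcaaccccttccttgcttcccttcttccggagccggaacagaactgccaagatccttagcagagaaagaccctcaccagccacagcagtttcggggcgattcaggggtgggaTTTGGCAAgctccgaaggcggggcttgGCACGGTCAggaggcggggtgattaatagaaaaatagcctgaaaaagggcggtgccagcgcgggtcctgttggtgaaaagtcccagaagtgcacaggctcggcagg
Txnrd1: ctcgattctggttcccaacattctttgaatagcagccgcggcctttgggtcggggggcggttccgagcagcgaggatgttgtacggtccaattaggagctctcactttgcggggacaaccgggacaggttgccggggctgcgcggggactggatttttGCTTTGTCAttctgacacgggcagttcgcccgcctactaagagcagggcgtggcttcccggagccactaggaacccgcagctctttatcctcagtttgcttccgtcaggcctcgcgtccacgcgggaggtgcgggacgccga
The antioxidant letters begin 56 bases before the start in Mgst1 and 92 bases before it in Txnrd1, and the C/EBP letters 83 bases before it in Mgst1. Over the set, 81 windows of 60 members could be read. These members are not the same as the 60 tested, since Txndc2, which was not tested, holds both sets of letters. Of the windows 11 (13.6%) held the antioxidant letters, against 12.4% of the 32851 windows in the table. The C/EBP letters were held by 8 (9.88%), against 10.8%. These are matches of letters, not binding sites.

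The soluble transferases gave 5 higher and 4 lower of 18 tested, shares near the 25.7% and 18.7% of all genes. The mu class, whose genes neighbour each other on chromosome 3, was split. Gstm1 had 5.63, 6.23 and 6.99 as lowest, median and highest value in GMPs, against 3.20, 3.46 and 3.97 in LSK cells. Gstm3 had 1.65, 2.63 and 3.88 in GMPs, against -0.24, -0.11 and 0.55 in LSK cells. Gstm4 had 0.80, 1.61 and 2.84 in GMPs, against -1.11, -0.71 and -0.23 in LSK cells. In none of these did the groups overlap on the brightest probe, and the 2 diseased arrays were its highest GMP arrays each time. The differences were 2.76 for Gstm1 (SE 0.26, adjusted p 0.000148), 2.69 for Gstm3 (SE 0.31, adjusted p 0.000389) and 2.43 for Gstm4 (SE 0.26, adjusted p 0.000253). Second probes above the filter gave 2.69 for Gstm1 and 0.88 for Gstm4. On the second Gstm4 probe the groups overlapped, with 0.10 in Ezh2-/- GMPs, against 0.15 in Tet2KD/KD LSK cells. Wild-type GMPs had 0.92 on that probe, above the 0.66 of RAEB GMPs.

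Gstm7, in the same cluster, went the other way, with -3.64, -2.89 and -1.78 in GMPs, against -2.00, -1.71 and -0.98 in LSK cells. Its diseased GMP arrays reached into the LSK range, and the difference was -1.16 (SE 0.25, adjusted p 0.00743). Gstm5 did not pass (-0.11, SE 0.20, adjusted p 0.664). Gstm6 was well above background on 0 GMP arrays and 2 LSK arrays. Mu-class genes are alike in sequence, and whether their probes read each other's transcripts was not tested.

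The theta-class Gstt1 was the member lowered most among those called. It had -3.46, -2.96 and -2.30 in GMPs, against -0.19, 0.39 and 2.17 in LSK cells. The groups lay more than 2 log2 units apart at their nearest, and the difference was -3.52 (SE 0.26, adjusted p 4.94e-05). Gsta4, which detoxifies lipid aldehydes, was lower (difference -1.85, SE 0.28, adjusted p 0.00155), a value that rests on GMP signals of which 2 of 6 were well above background. The kappa-class Gstk1 differed by -1.06 (adjusted p 0.00202), and Gsto1 by 0.79 (adjusted p 0.00105).

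**Figure D3:**
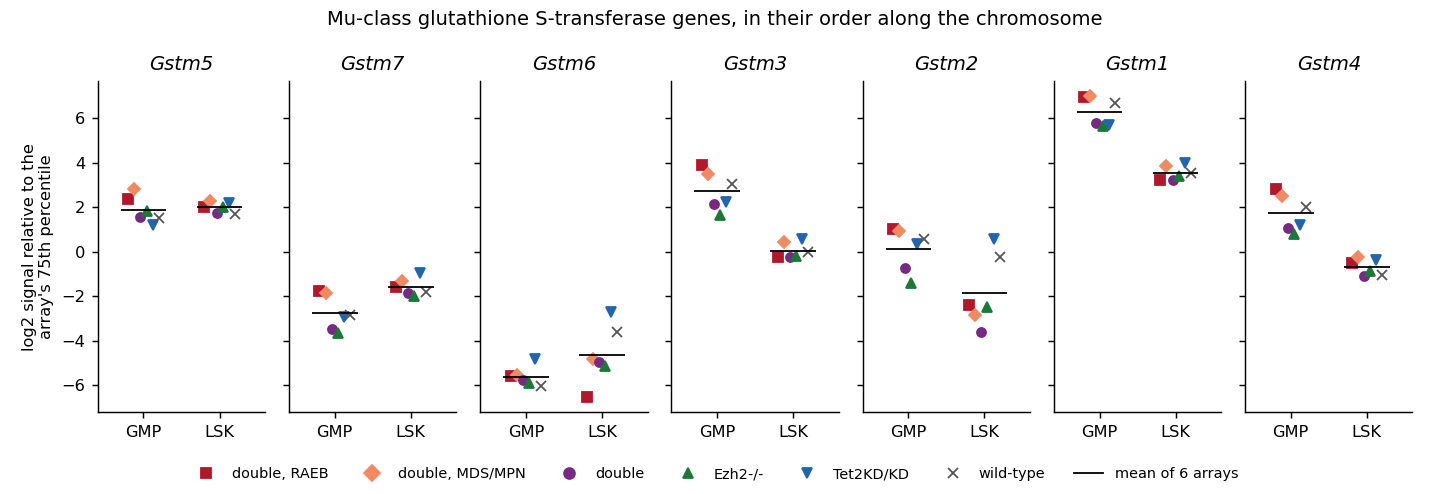
Log2 signal relative to the array's 75th percentile (vertical axis) of the 7 mu-class genes in their order along chromosome 3, GMP arrays left of LSK arrays in each panel. Points are single arrays and bars are means of 6. Gstm3, Gstm1 and Gstm4 are higher on every GMP array than on any LSK array, Gstm7 is lower on most, and Gstm2 varies most between conditions within a cell type.

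Gstm2 had the widest range of values across conditions among the mu-class genes called. On the GMP arrays it was 1.04 with RAEB, 0.94 with MDS/MPN, -0.75 in double mutant, -1.39 in Ezh2-/-, 0.35 in Tet2KD/KD and 0.59 in wild-type cells. On the LSK arrays it was -2.38 with RAEB, -2.83 with MDS/MPN, -3.62 in double mutant, -2.51 in Ezh2-/-, 0.55 in Tet2KD/KD and -0.24 in wild-type cells. Every Ezh2-/- array without disease thus lay below every array with Ezh2. The GMP minus LSK difference of Gstm2 was 1.97 (SE 0.53, adjusted p 0.0194), with -0.20 in the Tet2KD/KD pair and 3.77 in the MDS/MPN pair. That call was lost without the double mutant or the MDS/MPN pair, with slide as a random block and over the 8 arrays without disease.

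The promoters of Gstm2 and Gstm1 are shown because DNA methylation and Polycomb, the processes that Tet2 and Ezh2 act in, are known to read CpG content. Both are on the minus strand of GRCm38.p6 in RefSeq, Gstm2 at chr3:107986371-107986670 and Gstm1, 1 of 2 windows, at chr3:108017924-108018223. Capitals mark the CpG dinucleotides, the bases that DNA methylation uses.
Gstm2: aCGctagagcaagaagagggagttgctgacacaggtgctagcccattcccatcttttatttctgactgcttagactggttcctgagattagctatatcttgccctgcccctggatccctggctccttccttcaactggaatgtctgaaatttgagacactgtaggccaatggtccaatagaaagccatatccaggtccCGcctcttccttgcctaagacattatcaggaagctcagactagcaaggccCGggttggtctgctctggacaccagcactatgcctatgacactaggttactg
Gstm1: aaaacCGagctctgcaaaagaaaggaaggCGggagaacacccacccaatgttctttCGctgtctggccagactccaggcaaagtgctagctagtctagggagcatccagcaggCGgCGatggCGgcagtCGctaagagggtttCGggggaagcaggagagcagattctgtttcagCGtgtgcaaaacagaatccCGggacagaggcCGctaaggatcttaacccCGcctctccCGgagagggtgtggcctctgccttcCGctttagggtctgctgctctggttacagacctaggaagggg
The Gstm2 window holds 3 CpGs, and the windows of Gstm1 hold 14 in that shown and 8 in the other, where the median was 13 over the members' windows and 7 over all windows. The Gstm2 window also holds the C/EBP letters, as TTGCCTAA beginning 42 bases before the start.

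The loss of Ezh2 moved no redox gene past the threshold. The test set the 4 Ezh2-/- arrays without disease against the 4 with Ezh2, with cell type and Tet2 genotype as terms, and called 0 of the 60 members, where 0.19% of all genes were called. At an unadjusted p under 0.05 there were 9 members (15.0%, against 8.73% of all genes), and limma's trended and robust variant also called 0. Gstm2 averaged -2.07 in Ezh2-/- and 0.31 in Ezh2 wild-type arrays, a difference of -2.38 (SE 0.45, adjusted p 0.159), lower in 4 of 4 pairs, which ran from -4.17 to -1.10. Eif2s3y differed within these pairs as well, and in opposite directions in the 2 Tet2 backgrounds. The other probes of Gstm2 gave -1.77 and -1.61 for Ezh2 loss. With normexp correction Gstm2 passed (-1.38, adjusted p 0.0153), and over all alternatives its adjusted p ran from 0.0153 to 0.331.

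The Gstm2 difference was -1.54 in GMPs and -3.21 in LSK cells, and a test of GMP minus LSK for this effect gave 1.67 (SE 0.66, adjusted p 0.822). No member passed that test, the smallest adjusted p being 0.56, with 4 members at an unadjusted p under 0.05 (6.67%, against 5.82% of all genes). Gsta3, an alpha-class transferase, had the smallest adjusted p for Ezh2 loss among the members (0.0622), but was well above background on 0 of these 8 arrays, so no fold is given.

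In all 4 pairs 8 members were lower in Ezh2-/- (13.3%, against 5.79% of all genes) and 2 were higher (3.33%, against 7.73%). The lower ones were Gstm2, Gstm3 (-0.61, adjusted p 0.53), Gstm7 (-0.61, adjusted p 0.333), Txnip (-0.43, adjusted p 0.399), Gstt3 (-0.38, adjusted p 0.559), Mgst1 (-0.38, adjusted p 0.518), Gsto1 (-0.25, adjusted p 0.588) and Cat (-0.12, adjusted p 0.888). The higher ones were Gclc (0.09, adjusted p 0.909) and Gsta3. None of these passed. Marker lists moved with the same contrast. The median difference was -0.55 over 12 tested neutrophil markers, 1 of them positive, and -0.46 over 13 megakaryocyte and platelet markers, 1 of them positive. The neutrophil median was also -0.68 for Tet2 knockdown and -1.16 for double mutant minus wild-type, with 0 of the 12 positive in either. The neutrophil sum was 101 on the wild-type LSK array, a reference in each contrast, against 17.6 to 31.8 on the other LSK arrays without disease. The part of such cells in the redox values was not tested.

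**Figure D4:**
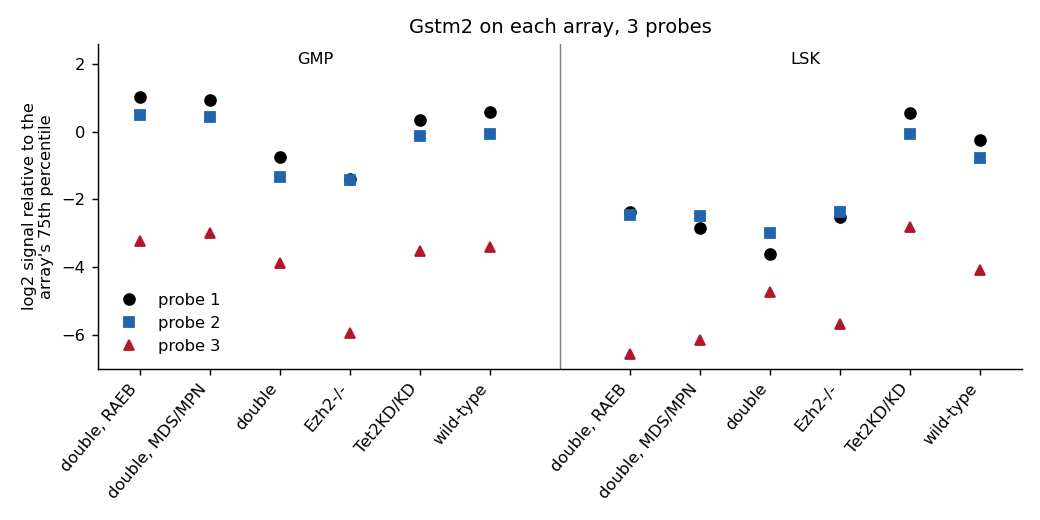
Log2 signal of the 3 Gstm2 probes relative to the array's 75th percentile (vertical axis) on the 12 arrays, GMP on the left and LSK on the right. Probe 1, the brightest, is well above background on all 12 arrays and probe 3 on 5. Probes 1 and 2 are lower on the Ezh2-/- and double mutant arrays than on the Tet2KD/KD and wild-type arrays in both cell types, and on the diseased LSK arrays too, but not on the diseased GMP arrays.

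Tet2 knockdown likewise gave 0 members past the threshold, as for all genes (0%), with 5 members at an unadjusted p under 0.05 (8.33%, against 5.69% of all genes). Gstp3 averaged -3.87 in Tet2KD/KD and -3.23 in Tet2 wild-type arrays, a difference of -0.64 (SE 0.25, adjusted p 0.82). It was -0.06 with normexp correction and -0.42 without the double mutant GMP array. The Gstp3 probe is dim, well above background on 9 of the 12 arrays. Txndc5 differed by 0.35 (SE 0.13, adjusted p 0.82) and Gsto1, a transferase of the omega class, by 0.24 (SE 0.11, adjusted p 0.82). In all 4 pairs 4 members were higher (6.67%, against 6.82% of all genes) and 1 was lower (1.67%, against 7.09%). Marker lists moved here too: the median difference was -0.68 over 12 tested neutrophil markers, 0 of them positive. It was -0.63 over 17 mast cell, basophil and eosinophil markers, 2 of them positive. The part of such cells in these values was not tested. A test of GMP minus LSK for the Tet2 effect gave 0 members at an unadjusted p under 0.05, against 1.9% of all genes. The double mutant without disease against wild-type rests on 2 pairs that are also part of the tests above. It gave 0 members (0% of all genes) and 1 at an unadjusted p under 0.05 (1.67%, against 3.17% of all genes), which was Gstm2 at -2.35 (SE 0.93, adjusted p 1.00). Mgst2 was -0.88, Gstm1 -0.60 and Gclm -0.53 in that comparison, and Gstk1 was 0.49 and Gss 0.42, with an adjusted p of 1.00 for each.

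In the diseased double mutants Gstm2, Gstm3, Gstm4, Gstm5, Gstm7 and Mgst1 gave higher values and Txnl1, Gsto2, Gpx2 and Gstt1 lower values than in double mutants without disease, and no difference passed. The 4 diseased arrays were each set against the double mutant array of their cell type. In GMPs sex differed along with disease and slide, by the Eif2s3y values above. Of the 60 members 0 were called (0% of all genes), 13 had an unadjusted p under 0.05 (21.7%, against 13.7% of all genes), and the median difference was 0.16 over the members and 0.10 over all genes. The smallest adjusted p among the members was 0.258. The arrays without disease are those that enter the tests of Ezh2 above.

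Gstm4 was 2.84 with RAEB and 2.49 with MDS/MPN, against 1.05 in double mutant GMPs without disease. In LSK cells it was -0.53 with RAEB and -0.23 with MDS/MPN, against -1.11. All 4 diseased arrays were higher, and the difference was 1.17 (SE 0.39, adjusted p 0.285). The second Gstm4 probe gave 0.66 with RAEB and 1.53 with MDS/MPN, against 0.43 in double mutant GMPs. In LSK cells that probe gave 0.08 with RAEB and 0.11 with MDS/MPN, against -0.58. Gstm2 differed by 1.38, Gstm7 by 1.05, Gstm3 by 0.94, Mgst1 by 0.90 and Gstm5 by 0.74, each higher on 4 of 4 diseased arrays. For Gstm3 the RAEB LSK array barely differed, at -0.23 against -0.24 in double mutant LSK cells. The Gstm2 difference was 0.84 without either the MDS/MPN GMP array or the double mutant LSK array and 0.63 with normexp correction. Without the RAEB GMP array the Gstm3 difference was 0.51 and that of Mgst1 0.55. Txnl1, a cytosolic protein with a thioredoxin domain that binds the proteasome, was -2.37 with RAEB and -1.69 with MDS/MPN, against -0.16 in double mutant GMPs. In LSK cells it was -0.86 with RAEB and -0.96 with MDS/MPN, against -0.03. The groups did not overlap, and the difference was -1.37 (SE 0.39, adjusted p 0.271). Gsto2 differed by -1.14, Gpx2 by -0.84, Gstt1 by -0.78 and Cat by -0.39; the Cat value was -0.07 over the mean of its probes.

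Counted as single arrays, without a test, the GMP array with RAEB had 10 members at least 2-fold above the double mutant GMP array (16.7%, against 8.24% of all genes). They were Gsta3, Gsta4, Gstm1, Gstm2, Gstm3, Gstm4, Gstm7, Gstp3, Mgst1 and Txnip. Of these Gsta3 was not well above background in double mutant cells. Gstp3, at -4.13 in double mutant GMPs, lay below the lowest signal well above background on that array. Gsta4 and Gstp3 were well above background on 8 and 9 of the 12 arrays. The folds of these genes are uncertain. Gstm4 is listed by its brightest probe, and its second probe gave 0.66 with RAEB, against 0.43 in double mutant GMPs. The GMP array with MDS/MPN had 7 (11.7%, against 4.71%), namely Gsta3, Gstm1, Gstm2, Gstm3, Gstm4, Gstm5 and Gstm7. Both diseased GMP arrays also differed in sex from the double mutant GMP array. Each diseased LSK array had 3 (5.00%, against 4.17% with RAEB and 4.82% with MDS/MPN). At least 2-fold lower were Gpx2, Gsto2 and Txnl1 in RAEB GMPs (5.00%, against 9.2%) and Txnl1 in MDS/MPN GMPs (1.67%, against 4.93%). In LSK cells Gsto2 was the only such member with RAEB (1.67%, against 6.07%) and with MDS/MPN (1.67%, against 6.04%). The marker lists moved on the same arrays. The 15 neutrophil markers summed to 704 with RAEB and 181 with MDS/MPN, against 52.3 in double mutant GMPs, and the 17 mast cell, basophil and eosinophil markers to 486 with RAEB and 2235 with MDS/MPN, against 160. The 13 megakaryocyte and platelet markers summed to 43.8 with RAEB and 26.9 with MDS/MPN, against 12.8 in double mutant GMPs. In LSK cells the neutrophil markers summed to 21.9 with RAEB and 350 with MDS/MPN, against 17.6 in double mutants, and the mast cell, basophil and eosinophil markers to 15.4 with RAEB and 73.4 with MDS/MPN, against 5.88. In double mutant GMPs 7 of the neutrophil markers were well above background, against 12 with RAEB and 12 with MDS/MPN. The part of such cells in the redox values was not tested.

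**Figure D5:**
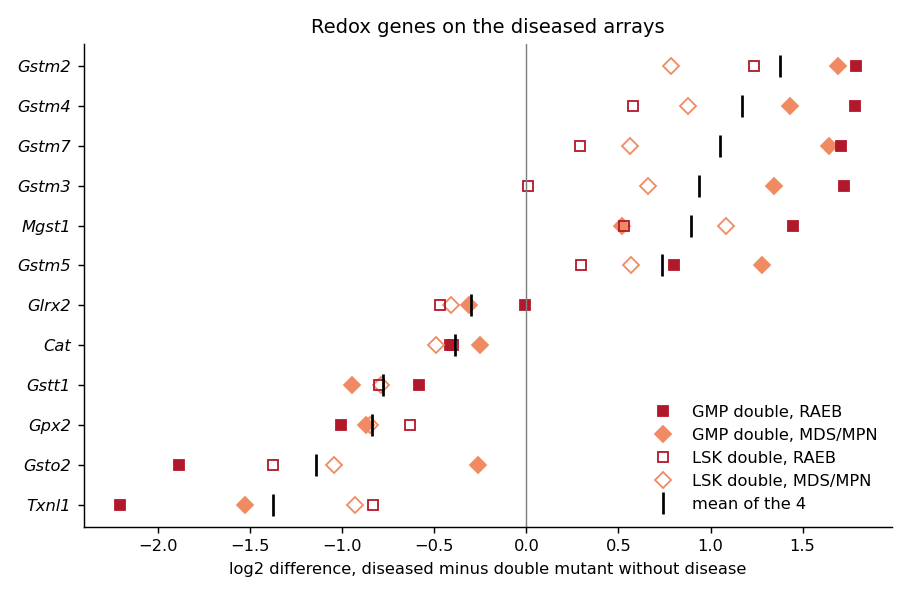
Log2 difference (horizontal axis) of each diseased array from the double mutant array of the same cell type, for the 12 redox genes named by the rule. Filled points are GMP arrays, open points LSK arrays, and black bars the mean of the 4. The 5 mu-class genes plotted and Mgst1 lie at or right of 0 on all 4 arrays, and Txnl1 lies left of it on all 4 with a mean of -1.37.

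RAEB against MDS/MPN, a comparison within slides, gave 0 members (0% of all genes) and 1 at an unadjusted p under 0.05 (1.67%, against 2.65% of all genes). This was Txndc5, with 0.92 in RAEB and 2.44 in MDS/MPN GMPs, and with 0.70 in RAEB and 0.87 in MDS/MPN LSK cells. The difference of -0.85 (SE 0.34, adjusted p 0.975) lay mostly in the GMP arrays. Without the RAEB LSK array it was -1.41 and passed (adjusted p 0.0461), and without the RAEB GMP array it was -0.28. Gsto2 differed by -0.98 (adjusted p 0.975). Gsta3 was well above background on 2 of 2 RAEB arrays and 1 of 2 MDS/MPN arrays, and its difference moved from 1.27 to 0.32 with normexp correction (adjusted p 0.975 in the test). As single arrays, RAEB GMPs had Gsta3 at least 2-fold above MDS/MPN GMPs (1.67%, against 4.63% of all genes) and Gsto2, Gstt2 and Txndc5 below them (5.00%, against 9.14%). RAEB LSK cells had Gsta3 above (1.67%, against 1.5%) and Gpx3 below MDS/MPN LSK cells (1.67%, against 2.14%). Marker lists moved in this comparison as well. The median difference was -2.08 over 17 mast cell, basophil and eosinophil markers, 1 of them positive. It was -1.30 over 12 tested neutrophil markers, 1 of them positive, and 1.13 over 8 tested B-lymphoid markers, 7 of them positive. The part of such cells in these redox values was not tested.

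The partners of these enzymes, in lists chosen with earlier results of the data known, were counted in GMP against LSK cells beside the 25.7% higher and 18.7% lower of all genes. Of 19 tested genes that supply NADPH, the electron donor of Gsr and the thioredoxin reductases, 13 were higher and 3 lower, with a median of 0.91. Those with the smallest p were the pentose phosphate enzymes Pgd (2.12), G6pdx (1.76) and Rpia (1.35), and the dehydrogenase Idh1 (2.48). Of 21 oxidoreductases of the endoplasmic reticulum 15 were higher and 0 lower, with a median of 1.36, among them the disulfide isomerases P4hb (1.88), Pdia5 (2.00) and Pdia3 (1.59). Of 17 genes of the NADPH oxidase and peroxidases, which make oxidants, 11 were higher and 2 lower; they included Ncf1 (2.03), Hvcn1 (2.78) and the GMP marker Mpo (2.56). Each gene named from these lists had an adjusted p of 0.000234 or less.

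Other lists were mixed. Of 23 regulators and targets of NRF2, 7 were higher and 4 lower, with a median of -0.02; the quinone reductase Nqo2 was higher (1.89) and the repressor Bach2 lower (-3.66). Nfe2l2, which encodes NRF2, was higher by 0.52 (SE 0.11, adjusted p 0.00753), and its inhibitor Keap1 (0.12) and the haem oxygenase Hmox1 (-0.02) did not pass. Of 13 sulfiredoxin, sestrin and methionine sulfoxide reductase genes, 4 were higher and 6 lower, including Msrb1 (3.07) and Sesn1 (-1.58). Of 25 genes of glutathione turnover and transport, 8 were higher and 4 lower. Of those lower, the glutamyltransferase Ggt5 was not well above background on any GMP array and at least 7.91-fold lower there, with an adjusted p of 1.7e-05. In the selenocysteine machinery, on which Gpx1 to Gpx4 and the thioredoxin reductases depend, 2 of 11 were higher and 1 lower, and 2 of 16 genes of oxidative stress sensing and FoxO were higher and 4 lower. None of these lists held a gene past the threshold in the comparisons of genotype or disease. Of all genes 0.19% passed for Ezh2 loss and 0% in each of the others, so this says nothing particular to the lists.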

How the data were processed

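Per the labels' protocols, total RNA was labelled with Cy3 and hybridised to one-colour Agilent arrays. Per the file headers, the deposited files come from Feature Extraction 10.7.1.1, and the processed signal is a background-corrected intensity. The deposited flags (well above background, saturated, outlier, control type) are recorded as a unit called other. The authors' value table holds that intensity at all 62976 spots of each array.

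Each array's log2 signal was taken relative to its 75th percentile (168.5 to 389.4 in linear units) over 59305 gene spots, of which 45.6 to 52.3% were well above background and 0 saturated. The number of arrays limits the precision. Probes were named through their RefSeq accession and a GRCm38.p6 gene table, since the files give no symbols: 26756 of 55681 probes had 1 symbol, 0 had several and 28925 none. For each gene the brightest probe was used. Of 18 members with 2 or more probes above the filter, 15 agreed in the sign of the GMP minus LSK difference.

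Two-sided tests used lmFit and eBayes of limma 3.58.1 (R 4.3.3), with Benjamini-Hochberg adjustment over 13707 genes and a threshold of 0.05, after a test on simulated data. Genotype tests used the 8 arrays without disease; the other contrasts used all 12 with cell type and condition as terms. The labels do not say whether arrays share mice, and Eif2s3y set the diseased GMP and LSK arrays apart in sex. The p-values measure only the spread between arrays. Alternatives covered quantile normalization, normexp correction on median signals (offset 50), the filter, a floor for dim spots, the mean over probes, trended and robust moderation, the authors' table, slide and each array left out.

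The members and lists were chosen with earlier results of these data known. Named genes were up to 4 per family by the size of the GMP minus LSK difference and 13 set genes; in the other comparisons, up to 6 in each direction with 1 sign in every pair. Gsta4, Gstk1, Gsto1, Gstm7 and the remaining mu-class genes in GMP against LSK, Gsta3, Gsto1 and Cat in Ezh2 loss, and Nfe2l2, Keap1 and Hmox1 were named after their values were seen. Sequences are from RefSeq; 60 of 69 members matched. Python 3.11.15 with pandas 2.3.3 and matplotlib 3.10.9 made the tables and plots.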

Additional observations from a re-analysis of the deposited data

How the results depend on the processing

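In GMP against LSK, 23 of the 34 calls were kept under each of 23 alternatives with a test. These alternatives are not all distinct. With condition as a block, leaving out either array of a pair gives the same fit, and the authors' table holds the same intensities as the input. Leaving out single arrays gave 29 to 39 called members (all genes 4473 to 6759, against 6085), 0 in each genotype comparison and in the diseased comparison, and 0 to 1 in RAEB minus MDS/MPN. For Ezh2 loss normexp correction gave 1 member, and the count over all genes moved from 26 to 7 with a Tet2 by Ezh2 term, 15 with quantile normalization, 12 with no filter, 73 with normexp correction, 77 with trended and robust moderation, 40 with a floor for dim spots and 0 to 10 with an array left out. Single values that changed sign were, in GMP minus LSK, Gclc (-0.0386), Prdx1 (-0.29) and Sod1 (-0.0308) with quantile normalization, and Prdx1 (-0.0029) over the mean of probes, and over the 4 arrays with disease Gclc (-0.0638), Prdx1 (-0.15) and Cat (0.21); with single arrays left out Cat ran from -0.0932 to 0.0302. In the diseased comparison Glrx2 became 0.10 over the mean of probes. In RAEB minus MDS/MPN Gstm2 became -0.0033 over the mean of probes. With single arrays left out, the values in that comparison ran from -0.81 to 1.36 for Gstm2, -0.27 to 1.095 for Gstp3, -0.0124 to 0.97 for Gpx7, -0.33 to 1.28 for Gsta4, -0.84 to 0.0663 for Txndc11 and -0.95 to 0.14 for Txndc9; Gpx7, Gsta4, Txndc11 and Txndc9 turned without the RAEB GMP array. Over all genes, leaving out the RAEB LSK array gave 360 calls in that comparison and 22 in the diseased one, in place of 0, and normexp correction, a floor and trended moderation gave 6, 15 and 4 for the Ezh2 effect in GMP minus LSK. The alternatives were listed at the outset except slide as a block in the diseased and RAEB minus MDS/MPN comparisons. These blocks were added after seeing the data, and slide as a fixed block gave 2 genes in RAEB minus MDS/MPN. The cause of these changes was not tested. With 1 array per group, values at a single array carry no error of their own, and where signals lie at background, as for Gpx3 in LSK cells, differences depend on the background correction.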
